A study of Mus musculus with 9 samples.

Results

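Gene expression in heart muscle cells, or cardiomyocytes (CM), was compared with that in mouse embryonic fibroblasts (MEF), the connective tissue cells of the embryo, across all genes of a 1-colour array. The comparison took 6 of the 9 arrays of the series, 3 titled as cardiomyocytes and 3 titled as MEFs, all of them titled as biological replicates. The fibroblasts were isolated from C57BL/6 embryos at embryonic day 13.5, and the cardiomyocytes were isolated directly from mouse heart. The labels give no age, strain, sex or heart chamber for the cardiomyocytes, and they do not say whether hearts were pooled. A treatment is given for neither group. The remaining 3 arrays, of cells that a chemical cocktail had induced from fibroblasts by day 24, entered the fit only for its estimate of the spread.

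Each gene was represented by 1 probe set, the one with the highest mean over the 9 arrays among those annotated with exactly 1 gene symbol, which gave 18193 genes. A gene was tested where at least 1 of the 3 group means reached 6.58, the median of the whole table of log2 signals. This held for 12559 genes and left out 5634. A gene is called higher or lower where the log2 difference of the group means, CM minus MEF, was at least 1, a 2-fold change, with an adjusted p under 0.05 (limma, Benjamini-Hochberg over the 12559 genes).

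A heart muscle cell is filled with sarcomeres, in which thick filaments of myosin pull on thin filaments of actin when calcium leaves the sarcoplasmic reticulum and reaches troponin. It beats without rest on ATP from its mitochondria, burns mainly fatty acids, and divides little after birth. An embryonic fibroblast instead divides, migrates and secretes the collagens and glycoproteins of connective tissue, and it keeps the homeobox code of the part of the body from which it came.

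The CM arrays correlated with each other at 0.930 to 0.953 over the genes tested and the MEF arrays at 0.971 to 0.975, while any MEF array correlated with any CM array at no more than 0.61. The median over genes of the SD between replicates was 0.239 for CM and 0.109 for MEF. Array medians were 6.37 to 6.53 for MEF and 6.75 to 6.85 for CM, and the hybridisation controls, RNAs added in fixed amounts, averaged 11.6 to 11.7 on the MEF arrays and 12.1 to 12.8 on the CM arrays. The 2 measures of array level therefore moved with the groups, and their part in the results was not tested beyond the rescaled values given here and in the closing section.

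In all, 2779 genes (22.1%) were higher in CM and 2736 (21.8%) were lower, so that 43.9% of the genes tested were called in either direction. These are bulk samples, in which fewer cells of a type and less RNA per cell cannot be told apart. The arrays of the 2 groups did not overlap for 9444 genes, or 75.2%. Higher genes made up 50.4% of the calls on the deposited scale, 35.1% after each array was centred on its median and 22.1% after the arrays were levelled on the hybridisation controls. The median difference over all genes tested was -0.03 (quartiles -0.90 and 0.90) as deposited, -0.40 after centring and -0.84 after levelling. Counts of higher and lower genes for each gene group below are therefore read against 22.1% and 21.8% and not against each other. Counts after levelling have another background, since 1551 of the 12559 genes tested were then higher and 5483 lower.

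Signals under 6.58 spread widely between arrays of 1 group, and 1720 called genes had their lower group mean there. For most such genes named below the difference is also given with 32 added to each linear signal before the log2, which damps low values. On that scale 161 genes were higher by at least 5 and 43 were lower by at least 5. The 12 highest were Myh6, Myl3, Tnni3, Myom2, Ckmt2, Cox8b, Myl2, Ttn, Pln, Mb, Csrp3 and Myoz2, most of them sarcomere proteins, with Mb (myoglobin, the oxygen store of muscle), Ckmt2 (the mitochondrial creatine kinase of striated muscle), Cox8b (a muscle subunit of cytochrome oxidase) and Pln (phospholamban, which restrains the calcium pump) beside them. The 12 lowest were Crabp1, Tnc, Col12a1, Thbs1, Col11a1, Lox, Tnmd, Cemip, Lrrc15, Fbn2, Htr1b and Pappa, of which all but Crabp1, a retinoic acid binding protein, and Htr1b, a serotonin receptor, encode secreted, matrix or cell surface proteins of connective tissue.

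Sarcomere genes led the differences. Myh6, the fast cardiac myosin heavy chain, read 3.04, 0.00 and 4.75 on the MEF arrays and 15.41, 15.94 and 15.79 on the CM arrays. Its difference was 13.12 ± 0.92 (SE; limma adjusted p = 3.78e-07), or 10.30 with 32 added, and the CM arrays stood far above every MEF array. Myl2, the regulatory light chain of ventricular myosin, read 4.77, 4.02 and 5.89 in MEF against 15.01, 15.60 and 15.40 in CM, a difference of 10.45 (9.34 with 32 added). The troponin complex, the calcium switch of the thin filament, differed as widely. Tnni3, the cardiac troponin I, read 4.60, 3.24 and 1.31 in MEF and 14.87, 15.33 and 15.25 in CM, a difference of 12.10 ± 0.70 or 9.72 with 32 added. Tnnt2, the cardiac troponin T, had MEF signals above the median of the table, at 7.18, 7.99 and 7.61, and CM signals of 15.36, 15.89 and 15.68. Its difference was 8.05 ± 0.19 (adjusted p = 2.19e-10). Actc1, the cardiac alpha-actin, was also measurable in fibroblasts, at 7.06, 7.25 and 7.12, against 15.19, 15.80 and 15.62 in CM (difference 8.39 ± 0.14, adjusted p = 3.90e-11). In none of these 5 genes did an array of one group overlap the other.

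**Figure D1:**
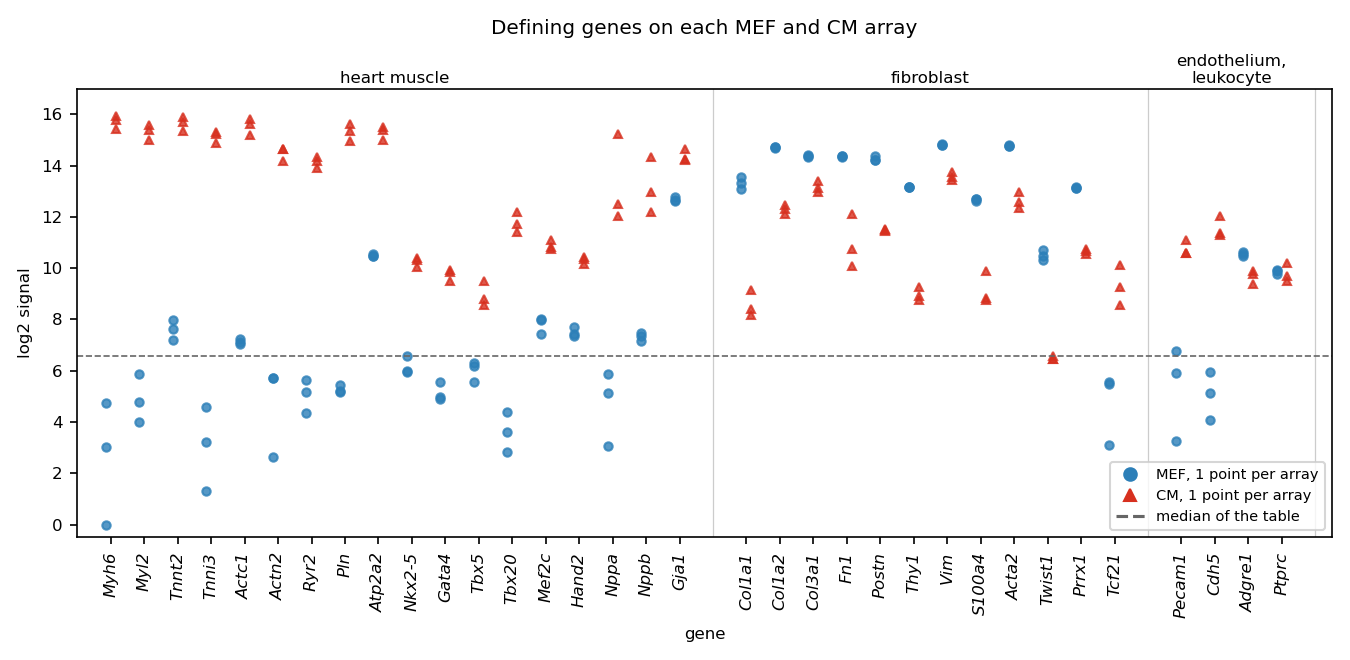
Log2 signal (vertical axis) of defining genes of heart muscle, fibroblasts, endothelium and leukocytes on each of the 3 MEF arrays (blue circles) and 3 CM arrays (red triangles), with the median of the table, 6.58, as a dashed line. Myh6 to Atp2a2 lie between 13.91 (Ryr2) and 15.94 (Myh6) on all CM arrays, the fibroblast genes other than Tcf21 are higher in MEF, and Adgre1 and Ptprc lie close together in both groups.

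Over the whole sarcomere the counts were one-sided. Of 18 thick filament and M-band genes tested, 17 were higher and 1 was lower, with a median difference of 8.47. Among 16 thin filament genes 13 were higher and 1 lower (median 5.55), and among 35 Z-disc and costamere genes, which anchor the filaments and tie them to the membrane, 31 were higher and none lower (median 3.96). Ttn, the giant spring of the sarcomere, differed by 11.12 (9.25 with 32 added), Mybpc3, the cardiac myosin binding protein C, by 8.71 (8.04 with 32 added), and Actn2, the sarcomeric alpha-actinin that cross-links actin at the Z-disc, by 9.80 (8.47 with 32 added). The lower thick filament gene was Obsl1, an obscurin relative, at -1.47, and this call turned to 0.50 when all of its probe sets were averaged. The lower thin filament gene was Tpm2, beta-tropomyosin, which read 13.84, 13.96 and 13.90 in MEF and 11.71, 10.39 and 10.45 in CM (difference -3.05 ± 0.28, adjusted p = 2.80e-06). Tpm1, alpha-tropomyosin, named after its values were seen, was 1.30 higher in CM and already stood between 13.84 and 13.92 in the fibroblasts. Acta1, the skeletal alpha-actin, differed by 0.90 ± 0.16 (adjusted p = 0.000424), under the minimum for a call, and Tnni1, the slow skeletal troponin I of the fetal heart, read 5.12 or less on each of the 6 arrays (difference -0.66, adjusted p = 0.351).

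The promoters of the called sarcomere genes were read because these genes moved together. A CArG box, the site that serum response factor binds, lay within 250 bases before the start in 13.8% of the 65 promoter windows of the 61 sarcomere genes called higher, of which 51 matched the RefSeq table. The share was 1.22% in 12983 windows of the genes tested, 1.54% in those of all genes called higher and 1.47% in all 32851 promoters of the table. A site for the MEF2 factors was found in 13.8% against 1.76% of the windows of genes tested, AGATAA, a core that GATA factors bind, in 13.8% against 5.94%, and CCAAT, searched as a common promoter motif, in 32.3% against 34.7%. TATAAA lay in 15.4% against 7%, and further motifs that were searched are not given here. Both strands were searched, motifs could overlap, and a match is a description of the letters, not of binding. The 120 bases before the start of 3 of these genes are given to show where the CArG box lies, from RefSeq for GRCm38.p6, in gene orientation, with the CArG box and any CCAAT in capitals. Actc1 and Myl3 stand for the thin and thick filaments, and Myl7 for the atrial genes that vary within CM.

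Myl3, chr9:110763558-110763677, plus strand: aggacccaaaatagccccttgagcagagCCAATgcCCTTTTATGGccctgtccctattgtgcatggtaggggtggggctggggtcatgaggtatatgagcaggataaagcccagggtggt
Actc1, chr2:114052876-114052995, minus strand: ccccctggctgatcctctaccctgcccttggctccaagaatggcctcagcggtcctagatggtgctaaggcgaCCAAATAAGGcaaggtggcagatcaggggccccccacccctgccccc
Myl7, chr11:5898783-5898902, minus strand: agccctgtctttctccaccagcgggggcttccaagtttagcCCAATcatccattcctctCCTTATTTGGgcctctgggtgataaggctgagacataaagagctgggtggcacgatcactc

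The CArG box began 85 bases before the start in Myl3, 47 in Actc1 and 61 in Myl7. Myl3, the essential light chain of ventricular myosin, read 3.62, 4.98 and 3.20 in MEF and 15.23, 15.73 and 15.69 in CM, a difference of 11.62 ± 0.42 or 9.94 with 32 added.

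Of 30 genes of calcium cycling in the sarcoplasmic reticulum, 19 were higher in CM and 3 were lower. Pln read 5.17, 5.43 and 5.22 in MEF and 14.97, 15.61 and 15.35 in CM (difference 10.03 ± 0.34, or 9.17 with 32 added). Ryr2, the calcium release channel, differed by 9.08 ± 0.37 (8.08 with 32 added), and Casq2, calsequestrin, which holds calcium in the lumen, by 8.50 ± 0.17 (7.72 with 32 added). The pump itself, Atp2a2 (SERCA2), was well expressed in fibroblasts at 10.49, 10.49 and 10.56 and reached 14.98, 15.51 and 15.38 in CM, a difference of 4.78 ± 0.13 (adjusted p = 4.24e-10). The 3 lower genes were Fkbp1b, a small partner of ryanodine receptors, at -2.01, Sri (sorcin) at -1.56 and Ryr1, the skeletal release channel, at -1.56. The calls of Sri and Ryr1 were lost when probe sets were averaged, and Ryr1 was also not called with 32 added (-0.26).

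Of 26 heart ion channel and pump genes tested, 22 were higher and none lower. Kcnip2, the accessory subunit of the transient outward potassium current, was 8.80 higher (6.23 with 32 added), with 2.68, 2.98 and 2.37 in MEF and 10.92, 11.79 and 11.73 in CM. Kcnd2, a pore subunit of the same current, was 4.53 ± 0.35 higher (3.90 with 32 added), and Kcnq1, the pore of the slow delayed rectifier, 5.31 ± 0.46 (4.24 with 32 added). In the intercalated disc, which joins heart cells end to end, 16 of 22 genes were higher and 1 was lower. Dsp (desmoplakin, which anchors desmosomes to intermediate filaments) read 5.56, 4.94 and 4.90 in MEF and 14.30, 14.53 and 14.50 in CM, a difference of 9.31 ± 0.18 (8.37 with 32 added). Gja1, the gap junction protein connexin 43, was already at 12.66, 12.76 and 12.61 in fibroblasts and differed by 1.69 ± 0.13. That call was lost after levelling on the hybridisation controls, where the difference was 0.89. Cdh2 (N-cadherin), at 1.47 ± 0.12, likewise started from 11.80 to 11.96 in MEF. The lower gene was Vcl (vinculin, which links actin to adhesions), at -1.55.

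The cardiac transcription factors were higher in CM as well, with a median difference of 2.36 over the list. Tbx20, a T-box factor of the working myocardium, read 2.84, 4.39 and 3.62 in MEF and 12.21, 11.72 and 11.39 in CM (difference 8.16 ± 0.41, or 6.29 with 32 added). Nkx2-5, the homeobox factor of the heart, read 5.98, 5.94 and 6.57 against 10.06, 10.32 and 10.40 (4.09 ± 0.30, or 3.59 with 32 added, adjusted p = 5.54e-07). Gata4 differed by 4.62 ± 0.30 (3.73 with 32 added) and Tbx5 by 2.93 ± 0.61 (2.44 with 32 added, adjusted p = 0.00139). The MEF2 factor Mef2c, with a mean of 7.80 ± 0.33 (SD, n = 3), and Hand2, at 7.35, 7.71 and 7.44, lay above the median of the table in the fibroblasts, and they differed by 3.09 ± 0.16 and 2.82 ± 0.20. Of 41 genes in the list, 28 were higher and 2 were lower, namely Shox2, a factor of the sinus node, and Nr4a1, an immediate early nuclear receptor. Esrrg and Ppara, nuclear receptors that turn on genes of oxidative metabolism, were 5.74 and 4.65 higher, and Isl1, of heart progenitors, differed by -1.31 without a call.

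Natriuretic peptides, hormones that the heart releases when it is stretched, were higher in CM but uneven among its arrays. Nppa read 3.07, 5.85 and 5.13 in MEF and 15.24, 12.50 and 12.05 in CM (difference 8.58 ± 0.83, or 7.31 with 32 added), and Nppb read 7.33, 7.14 and 7.45 against 14.32, 12.95 and 12.17 (5.84 ± 0.43). CM replicate 1 was the highest for both, and no array overlapped between the groups. Corin, the membrane protease that cuts pro-atrial natriuretic peptide, was even among the CM arrays, at 13.20, 13.10 and 13.20, and differed by 9.12 ± 0.45 (7.57 with 32 added). Of 29 genes of cardiac hormone and adrenergic signalling tested, 17 were higher and 1 was lower, the growth factor Nrg1 at -2.64 (-1.55 without CM replicate 2).

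A list of genes of the mature heart and a list of genes of the fetal heart differed in direction. This contrast is with fibroblasts, and no sample is labelled as fetal heart, so the maturity of the heart cells was not measured. Of 27 adult genes tested 25 were higher in CM and 2 were lower (median difference 6.69), while of 26 fetal genes 7 were higher and 16 lower (median -2.16). The 2 lower adult genes were Angptl4 (an inhibitor of lipoprotein lipase) at -3.05 and Cyp1b1 (a cytochrome P450) at -4.15. Of the fetal genes, the growth factor Igf2 read 14.15, 14.16 and 14.07 in MEF and 10.80, 10.10 and 9.89 in CM (difference -3.86 ± 0.19), the chromatin protein Hmga2 differed by -6.58 ± 0.19 (-5.98 with 32 added), and Dlk1 (a Notch pathway relative that is shut off after birth) by -5.18 ± 0.64 (-3.90). The fetal genes that were higher in CM included the atrial light chains Myl7 and Myl4, both peptides named above and Myh7, the slow myosin heavy chain. Myh7 read 5.09, 6.33 and 6.53 in MEF and 10.62, 9.56 and 8.72 in CM, a difference of 3.65 ± 0.46 (3.09 with 32 added), against 13.12 for Myh6. The lower fetal genes included Cdk1, of the cell cycle, and Acta2 and Tagln, of the contractile cytoskeleton, which the fibroblasts expressed.

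Genes of the respiratory chain and the citrate cycle were called higher or not called, and none was lower. All 33 tested genes of respiratory complex I (NADH dehydrogenase), of 37 written, and all 14 of complexes II and III were higher, with median differences of 2.34 and 2.36. The fibroblasts expressed such genes too. Sdhb, a subunit of complex II, read 12.42, 12.48 and 12.48 in MEF and 14.59, 15.13 and 14.96 in CM, a difference of 2.43 ± 0.12. Of the other complexes, 12 of 20 cytochrome oxidase genes and 21 of 24 genes of ATP synthase and the nucleotide carriers were higher and none was lower. The second of these lists also holds the creatine kinases Ckmt2 and Ckm. After levelling on the hybridisation controls 7 and 12 genes of these lists were called higher. The citrate cycle had 28 of 29 genes higher (median 2.35), and no gene was lower.

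Genes that take up and burn fatty acids were higher in 36 of 39 cases and lower in 1, with a median difference of 3.17. Fabp3, the fatty acid binding protein of heart, read 8.49, 8.37 and 8.56 in MEF and 15.22, 15.72 and 15.60 in CM (7.04 ± 0.12, adjusted p = 5.00e-11). Acadm, the medium-chain dehydrogenase of beta-oxidation, differed by 3.92 ± 0.12, and Pdk4, the kinase that shuts pyruvate out of the citrate cycle, by 5.07 ± 0.14. Cpt1a, the carnitine palmitoyltransferase of liver and most other tissues, was -0.46 ± 0.14 and not called. Genes of mitochondrial biogenesis and dynamics, a list that also holds Mb, followed the same direction in 22 of 38 cases, with none lower. Ppargc1a (PGC-1 alpha, the coactivator that drives mitochondrial biogenesis) read 5.45, 6.17 and 4.98 in MEF and 11.04, 11.05 and 11.06 in CM (5.52 ± 0.26, or 4.76 with 32 added), whereas Tfam, the packaging factor of mitochondrial DNA, differed by 0.34 and Nrf1 by -0.02, neither called.

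Of 33 glycolysis and glycogen genes tested 17 were higher and 7 lower, or 12 and 10 after levelling. Several enzymes have related genes that differ between tissues, and pairs of these were set side by side, named after their values were seen. Pgam2, the muscle phosphoglycerate mutase, read 5.04, 3.37 and 3.85 in MEF and 13.65, 13.94 and 14.04 in CM (9.79 ± 0.33, or 8.22 with 32 added), while Pgam1, the widely expressed form, read 13.30, 13.33 and 13.35 against 11.71, 10.72 and 10.56 (-2.33 ± 0.24). The glucose carriers also differed in direction. Slc2a4 (GLUT4, which insulin brings to the membrane) was 6.24 ± 0.19 higher, and Slc2a1 (GLUT1) differed by -2.42 ± 0.10, from a mean of 12.59 to 10.16. For enolase, Eno3 of muscle was 5.18 ± 0.13 higher and Eno2 of neurons differed by -2.04 ± 0.45. The muscle form was not the only one to be higher: Pygb, the glycogen phosphorylase of brain, was 2.64 higher beside Pygm of muscle at 8.50. The other lower genes were Pgm2, a phosphoglucomutase, at -2.28, Slc16a3, a lactate carrier, at -2.64, Aldoc and Pfkfb3.

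In most other pairs the muscle member alone was called. Ldhb, the heart lactate dehydrogenase, was 4.19 ± 0.13 higher and Ldha differed by 0.04 (adjusted p = 0.704). Pfkm, the muscle phosphofructokinase, was 5.16 ± 0.14 higher and Pfkp differed by 0.14. Ckm, the creatine kinase of muscle, was 9.34 ± 0.46 higher (8.41 with 32 added), and Ckb of brain differed by -0.01. Among the subunits of cytochrome oxidase that exist in a muscle and a general form, Cox8b was 11.87 higher (9.45 with 32 added) and Cox8a differed by 0.27 (adjusted p = 0.0503), Cox6a2 was 6.69 ± 0.13 higher and Cox6a1 differed by 0.07, and Cox7a1 was 8.34 ± 0.20 higher. Cox7a2, the general form of the last pair, was called as well, at 1.85 ± 0.12. Eef1a2, the translation elongation factor of muscle and neurons, was 5.24 ± 0.16 higher, and Eef1a1 differed by -0.04. Levels are not set against each other within a pair, since probe sets differ in brightness.

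**Figure D2:**
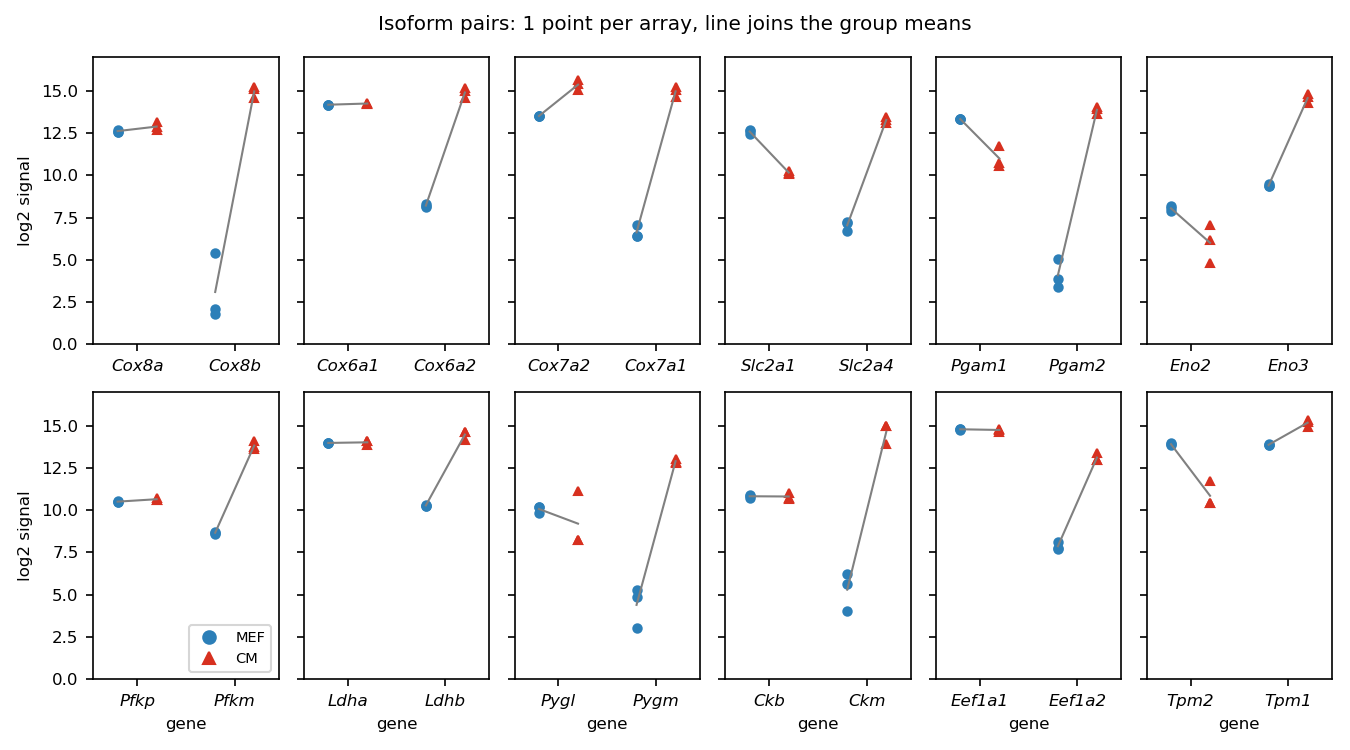
Log2 signal (vertical axis) of 12 pairs of related genes on the 3 MEF arrays (blue circles) and 3 CM arrays (red triangles), with a line joining the group means. The muscle member of a pair, such as Cox8b, Pgam2 or Ckm, climbs steeply from MEF to CM, while the general member is level, as for Ckb (-0.01), falls, as for Pgam1 (-2.33), or for Cox7a2 climbs by 1.85; in the tropomyosin pair Tpm2 falls and Tpm1 is 1.30 higher.

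The fibroblast program was lower in CM, beginning with its transcription factors. Twist1, a factor of mesenchyme, read 10.70, 10.48 and 10.32 in MEF and 6.46, 6.58 and 6.47 in CM (-3.59 with 32 added, adjusted p of the deposited values 2.00e-09). Prrx1 and Prrx2, homeobox factors of limb and face mesenchyme, differed by -2.48 ± 0.08 and -4.87 ± 0.38 (-3.84 with 32 added for Prrx2). Twist2 differed by -6.37 ± 0.34 (-5.83 with 32 added) and Runx1 by -4.51 ± 0.20 (-3.94). Of 35 such factors 21 were lower and 3 higher. The higher ones were Tcf21, a factor of epicardium and of the fibroblasts that reside in the heart, Meox2 and Msx1, and the call of Msx1 was lost when probe sets were averaged. Tcf21 read 5.49, 3.10 and 5.55 in MEF and 10.11, 9.28 and 8.57 in CM (4.61 ± 0.65, or 3.43 with 32 added), on arrays that also carried more Dcn than the fibroblasts.

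Hox genes, which record position along the body axis, were lower in 20 of the 24 tested and higher in none, with a median difference of -3.49. At the filter of the 75th percentile, which tests fewer of these weakly expressed genes, 10 were lower. With 32 added, 19 of the 24 were lower and the median difference was -2.26. Only 4 Hox genes reached the median of the table in both the MEF and the CM mean. Of these, 2 were lower and none higher, with a median difference of -1.73. For the other Hox genes tested the size of the difference rests on low signals, which spread widely between arrays. Hoxc8 read 10.51, 10.58 and 10.66 in MEF and 5.13, 1.28 and 0.80 in CM (-8.18 ± 0.87, or -5.20 with 32 added), and Hoxa9 differed by -7.38 ± 0.42 (-4.96 with 32 added). Hoxc4 and Hoxb3, nearer the anterior end of their clusters, were lower too, at -4.94 and -3.37. The 4 Hox genes without a call were Hoxa5 (0.59), Hoxa4 (-0.09), Hoxb4 (-0.80) and Hoxd13 (-0.93).

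Surface and cytoskeletal genes of fibroblasts were lower in 34 of 44 and higher in 2. Thy1, a surface glycoprotein used to mark fibroblasts, read 13.18, 13.16 and 13.18 in MEF and 9.27, 8.76 and 8.92 in CM (-4.19 ± 0.13). Acta2 (smooth muscle actin) differed by -2.17 ± 0.14 and S100a4 by -3.52 ± 0.24. Vim, vimentin, the intermediate filament of mesenchymal cells, differed least of these, at -1.23 ± 0.09, and still read 13.45 to 13.74 on the CM arrays. Des, the intermediate filament of muscle, was higher by 4.21 ± 0.11, from 9.47 to 9.68 in MEF.

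Of 31 collagen chains tested 20 were lower and 4 higher. Col1a1, a chain of the main fibrillar collagen, read 13.09, 13.54 and 13.33 in MEF and 8.41, 8.19 and 9.14 in CM (-4.74 ± 0.21, adjusted p = 1.38e-08). The other chain of the same trimer, Col1a2, differed by -2.43 ± 0.09 and Col3a1, of reticular fibres, by -1.21 ± 0.11, both still above 12 on each CM array. Col11a1 and Col12a1, among the 12 lowest genes, differed by -7.99 ± 0.49 and -7.81 ± 0.42 (-6.60 and -7.19 with 32 added), and were under the median of the table in the CM mean. The 4 higher chains were Col4a4, Col15a1, Col14a1 and Col23a1. Col15a1, of basement membranes, read 6.88, 6.04 and 6.65 in MEF and 8.51, 8.97 and 9.26 in CM (2.39 ± 0.38, or 2.04 with 32 added), and the call of Col14a1 (1.79 ± 0.31) was lost after levelling and that of Col23a1 with 32 added (0.95). Col4a1 and Col4a2, the main chains of basement membrane, were -0.97 and -0.98 and just short of a call.

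Enzymes that modify and cross-link collagen were lower in 21 of 26 and higher in 2. Lox, the lysyl oxidase that cross-links collagen and elastin, read 14.49, 14.47 and 14.51 in MEF and 7.65, 7.61 and 7.85 in CM (-6.78 ± 0.10, adjusted p = 2.43e-11). Matrix glycoproteins and proteoglycans were less uniform, with 32 of 56 lower and 8 higher. Thbs1, thrombospondin 1, which regulates adhesion and TGF-beta activation, read 14.26, 14.30 and 14.29 in MEF and 7.98, 6.33 and 6.77 in CM (-7.25 ± 0.33). Fn1 (fibronectin) differed by -3.38 ± 0.39 and Postn (periostin) by -2.79 ± 0.09. The 8 higher matrix genes were Tnxb, Sparcl1, Lum, Ltbp4, Dcn, Ogn, Smoc2 and Lama2, of which Ogn, Smoc2 and Lama2 lost the call after levelling. Dcn, decorin, a small proteoglycan that binds collagen fibrils, read 12.12, 12.13 and 12.08 in MEF and 14.17, 14.31 and 13.60 in CM (1.92 ± 0.16), and Lum, lumican, of the same family, 9.72, 9.50 and 9.58 against 13.22, 13.11 and 11.73 (3.08 ± 0.32). These 2 genes are products of fibroblasts, and they were higher on arrays of heart isolates.

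Proteases of the matrix and their inhibitors were lower in 25 of 33. Timp1, an inhibitor of metalloproteinases, read 13.54, 13.53 and 13.45 in MEF and 8.47, 7.85 and 7.26 in CM (-5.65 ± 0.23), and Mmp13, a collagenase, differed by -6.81 ± 0.32 (-5.72 with 32 added). The only higher gene was Timp4, the inhibitor most typical of heart, at 5.35, 4.39 and 5.37 against 11.17, 11.57 and 11.95 (6.53 ± 0.32, or 5.54 with 32 added). Of 54 secreted factors of fibroblasts 37 were lower and 3 higher. Ccl2, the chemokine that draws monocytes, read 13.15, 13.16 and 13.10 in MEF and 7.90, 6.83 and 6.59 in CM (-6.03 ± 0.28). The TGF-beta and BMP pathway had 17 of 41 genes lower and 3 higher, with a median difference of -0.72. Its ligand antagonists Grem1 and Fst were among the lower ones, at -4.22 and -5.20, and Bmp6, Bmp7 and the target Id1 were the higher ones, at 3.01, 2.12 and 1.85, with Bmp7 at 1.4 without MEF replicate 2.

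**Figure D3:**
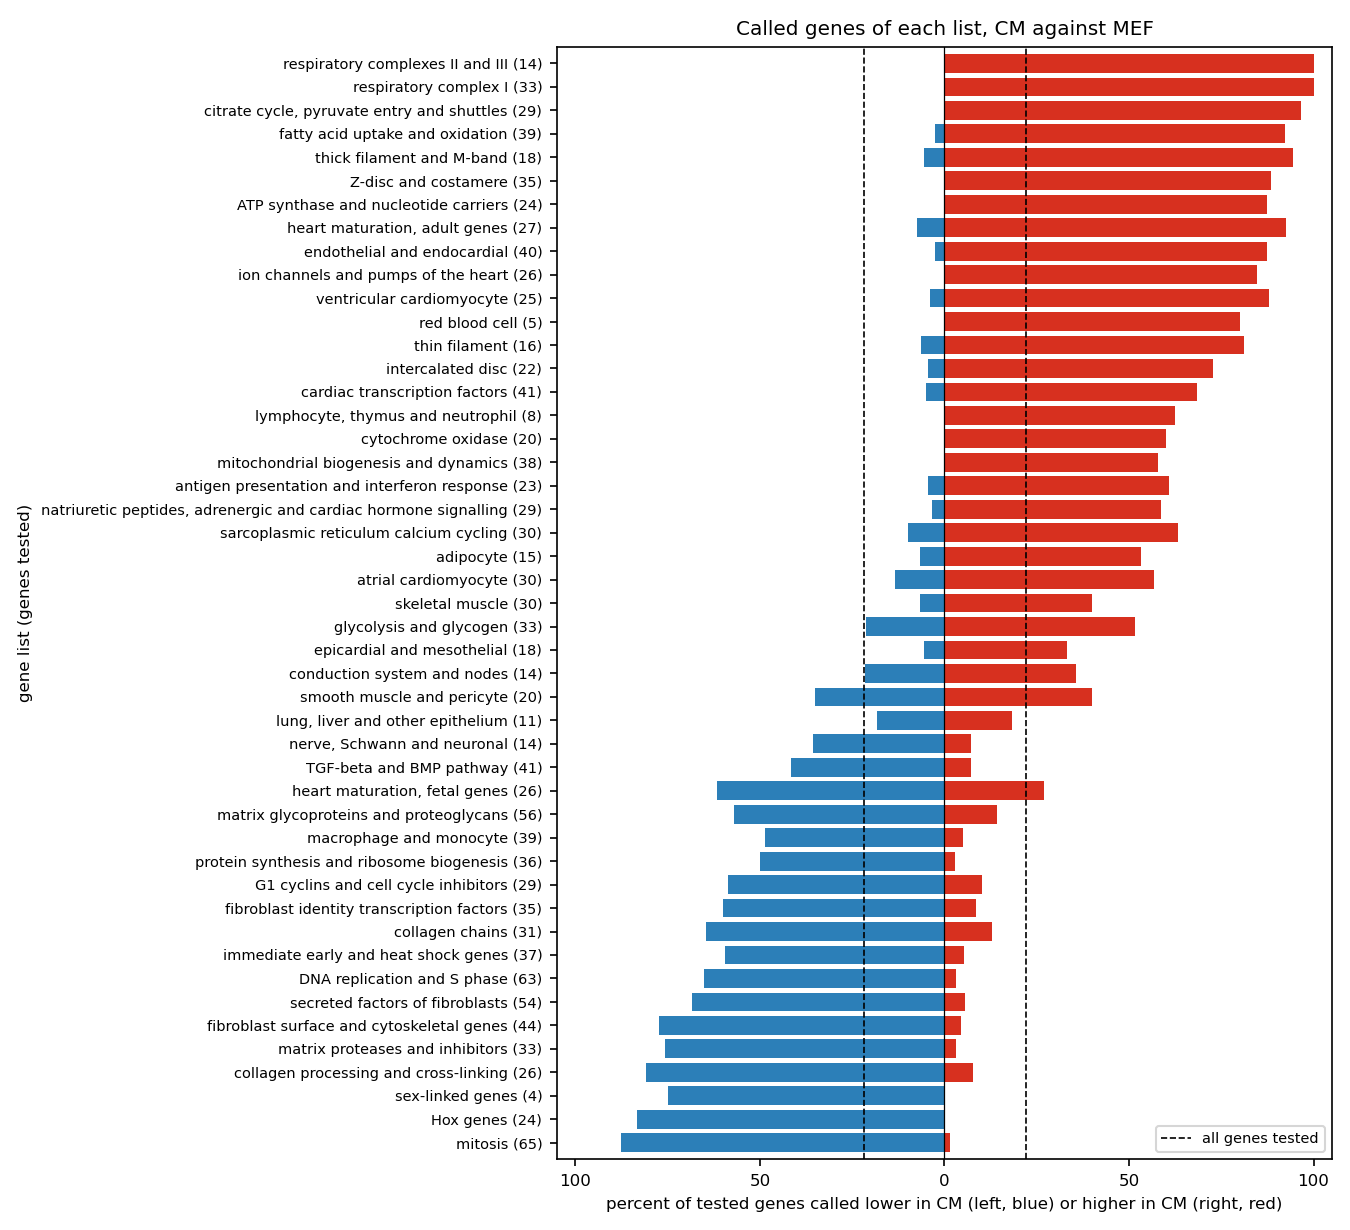
Percent of the tested genes of each list that were called higher in CM (red bars to the right of 0) or lower (blue bars to the left); the number of tested genes stands in brackets, and dashed lines give the shares over all genes tested, 22.1% and 21.8%. Respiratory complexes I, II and III reach 100% higher and mitosis 87.7% lower, and the smooth muscle and pericyte list is split between 40% and 35%.

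Genes of cell division were lower in CM as a group. Of 65 genes of mitosis 57 were lower and 1 was higher, with a median difference of -2.93. Cdk1, the kinase that starts mitosis, read 11.60, 11.38 and 11.36 in MEF and 7.74, 8.22 and 7.56 in CM (-3.60 ± 0.22, adjusted p = 1.32e-07). Its partner Ccnb2 (cyclin B2) differed by -3.55 ± 0.23, Cdc20, which activates the ligase that ends mitosis, by -3.64 ± 0.20, and Top2a, the topoisomerase of dividing cells, by -3.32 ± 0.23. The gene of this list that was higher was Pttg1, securin, at 12.09, 12.05 and 12.02 in MEF and 13.87, 14.23 and 14.04 in CM (1.99 ± 0.10). Each CM array lay above every MEF array for this gene.

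DNA replication genes were lower in 41 of 63 and higher in 2, Pold3 and Ung. Rrm2, the ribonucleotide reductase subunit of S phase, differed by -3.51 ± 0.23, and Pcna, the sliding clamp, by -1.11 ± 0.09, with CM signals still between 11.60 and 11.89. Ung lost its call after levelling (0.90) and Pold3 with the mean over probe sets (adjusted p = 0.0582). Pold3 was uneven among the CM arrays, as given below. Of 29 G1 cyclins and cell cycle inhibitors 17 were lower and 3 higher. Both kinds were among the lower ones: Ccnd2, a cyclin, differed by -1.70 ± 0.11, and Cdkn1a (p21), an inhibitor, read 12.71, 12.88 and 12.60 in MEF and 10.57, 9.69 and 9.48 in CM (-2.81 ± 0.22).

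The promoters of the mitosis genes called lower were searched with the same motifs as the sarcomere genes. Described here are 2 that are common near the starts of cell cycle genes, picked from the larger set searched. Of the others, the MEF2 site lay in 5.45% against 1.76% for the genes tested, and TATAAA in 3.64% against 7%. Genes of complexes I, II and III and matrix genes were searched as well, and their shares are not given here. CCAAT lay in 74.5% of 55 windows of 250 bases before the start, from 50 of the 57 genes, against 34.7% for the genes tested and 35.6% for all genes called lower. TTTGAA, the core of the cell cycle homology region, lay in 40% against 10.6% and 11.3%. In all promoters of the table the shares were 33.8% and 16%. Both strands were searched, so ATTGG is CCAAT read on the other strand, and no site of either kind overlaps the other in the sequences shown. The 120 bases before the start of 3 such genes, given with CCAAT and TTTGAA on either strand in capitals, show repeated CCAAT boxes close to the start.

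Cdk1, chr10:69352913-69353032, minus strand: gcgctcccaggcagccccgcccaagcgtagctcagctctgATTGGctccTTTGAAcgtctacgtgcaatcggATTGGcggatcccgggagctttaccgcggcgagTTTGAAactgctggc
Cdc20, chr4:118437344-118437463, minus strand: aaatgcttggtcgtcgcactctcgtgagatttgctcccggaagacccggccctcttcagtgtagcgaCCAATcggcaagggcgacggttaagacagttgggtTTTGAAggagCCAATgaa
Ccnb2, chr9:70421555-70421674, minus strand: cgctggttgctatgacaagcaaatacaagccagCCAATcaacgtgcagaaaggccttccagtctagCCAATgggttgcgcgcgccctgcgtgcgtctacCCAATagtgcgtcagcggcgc

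The CCAAT boxes of Ccnb2 began 87, 54 and 21 bases before the start, those of Cdk1 80 and 48, and those of Cdc20 53 and 8. TTTGAA began 71 and 15 bases before the start of Cdk1 and 18 before that of Cdc20.

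Of 36 genes of protein synthesis and ribosome biogenesis 18 were lower, 1 was higher and 17 were not called. After levelling 29 were lower and 1 higher. Psat1, an enzyme of serine synthesis, read 12.95, 12.92 and 12.89 in MEF and 7.71, 7.49 and 7.38 in CM (-5.40 ± 0.10, adjusted p = 8.12e-11), and Phgdh, which opens the same pathway, differed by -5.04 ± 0.25. Myc, which drives growth and ribosome production, differed by -3.71 ± 0.18. Immediate early and heat shock genes, which answer to serum and to tissue handling, were lower in 22 of 37 and higher in 2, Klf2 and Dusp1, both of which lost the call after levelling. Egr1 read 12.74, 12.74 and 12.70 in MEF and 11.11, 9.77 and 9.26 in CM (-2.68 ± 0.39). The MEF arrays were close together for this gene and the CM arrays spread over almost 2 units, all of them below the fibroblasts.

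Markers of other cell types were measured in both groups. Endothelial and endocardial genes were higher in 35 of 40 and lower in 1, with a median difference of 4.38. Cdh5, the cadherin of endothelial junctions, read 5.15, 4.09 and 5.94 in MEF and 11.30, 11.38 and 12.05 in CM (6.52 ± 0.53, or 5.52 with 32 added), and Pecam1, another junction protein, differed by 5.45 ± 0.74 (4.44 with 32 added). The summed linear signal of this list was 14710 to 15180 on the MEF arrays and 107800 to 126300 on the CM arrays, so the endothelial signal stood on all 3 CM arrays. Rgs5, of pericytes, was 4.84 ± 0.23 higher, while Tagln, of smooth muscle and cultured fibroblasts, was -4.82 ± 0.14. The smooth muscle and pericyte list had 8 of 20 genes higher and 7 lower. The higher ones included Pln, Des and Abcc9, which are not particular to smooth muscle.

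Leukocyte genes did not separate the groups in the same way. The pan-leukocyte gene Ptprc read 9.89, 9.75 and 9.95 in MEF and 10.22, 9.69 and 9.49 in CM, and the groups overlapped (difference -0.07 ± 0.25, adjusted p = 0.827). Adgre1, of macrophages, read 10.64, 10.45 and 10.54 against 9.90, 9.75 and 9.39 (-0.86 ± 0.16, not called, but called lower after centring or levelling). Of 39 macrophage genes 19 were lower in CM and 2 higher (30 and 2 after levelling), and their summed signal was 105400 to 109300 in MEF and 49160 to 68550 in CM. Macrophage signal was thus present on the fibroblast arrays too, and its part in the comparison was not tested. Genes of antigen presentation and the interferon response, taken as 1 list, were higher in 14 of 23 and lower in 1. After levelling 7 were higher and 2 lower. H2-Aa, a class II chain, read 3.60, 3.22 and 2.90 in MEF and 12.12, 12.64 and 12.10 in CM (9.05 ± 0.47, or 6.92 with 32 added), and its partner Cd74 differed by 4.81 ± 0.25. S100a9, of neutrophils, was 8.23 ± 1.27 higher (5.09 with 32 added), and Alas2, of red cell precursors, 8.03 ± 0.94 (4.82 with 32 added). Of 30 skeletal muscle genes 12 were higher and 2 lower, but 7 and none with 32 added and 9 and 5 after levelling. Only 2 of them reached 6.58 in both the MEF and the CM mean. The filter also counted the induced cells, through which a gene could enter. The summed signal of this list was 334200 to 381000 there, 30930 to 35950 in CM and 2293 to 2496 in MEF. Myod1 and Myog, the factors that define that lineage, were under 6.58 on all 6 arrays, with overlapping groups. Of the remaining marker lists, nerve genes were higher in 1 of 14 and lower in 5, epithelial genes higher in 2 of 11 and lower in 2, and genes of the conduction system higher in 5 of 14 and lower in 3. After levelling these counts were 1 and 9 for nerve, none and 3 for epithelium, and 2 and 8 for the conduction system. The balance of the last list thus turned, as did that of all 12559 genes tested, with 1551 higher and 5483 lower.

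The CM arrays varied among themselves more than the fibroblast arrays. With 32 added, 195 genes (1.55%) had a range of at least 2 over the 3 CM arrays, against 7 over the MEF arrays. Most of that spread lay in CM replicate 1. It exceeded the mean of the other 2 CM arrays by at least 2 for 96 genes (0.764%) and lay under it by as much for 6 genes (0.0478%). Replicate 2 did so for 4 genes (0.0318%) and 27 genes (0.215%), and replicate 3 for 8 (0.0637%) and 37 (0.295%). On the deposited scale, where low signals count in full, replicate 1 was higher for 247 genes (1.97%) and lower for 85 (0.677%). There, replicate 2 was higher for 89 (0.709%) and lower for 159 (1.27%), and replicate 3 higher for 77 (0.613%) and lower for 196 (1.56%). These are counts from 1 array against 2 and carry no test.

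Atrial genes made up part of that excess. Sln, sarcolipin, the regulator of the calcium pump in atria, read 14.95 on CM replicate 1, 8.14 on replicate 2 and 2.97 on replicate 3, and 4.34 to 4.90 on the MEF arrays. CM replicate 3 and the MEF arrays thus lay under 6.58, where their order is not reliable, while replicate 1 stood far above them. The difference of 4.0 ± 2.2 was not called (adjusted p = 0.123). Without replicate 1 it was 0.87, and without replicate 3 it was 6.86 (adjusted p = 0.00245). Myl7, the atrial regulatory light chain, read 15.05, 9.25 and 5.98 against 0.98 to 5.67 in MEF, a called difference of 6.43 ± 1.90 (adjusted p = 0.0111) that was 3.96 without replicate 1 (adjusted p = 0.0237). Myl4, the atrial essential light chain, read 14.92, 9.67 and 8.36, and its difference of 3.88 ± 1.26 was 1.91 without CM replicate 1; without MEF replicate 1 the call was lost (adjusted p = 0.0536). Mybphl, a myosin binding protein of atria and conduction cells, read 12.89, 4.20 and 5.58 and was not called (3.39 ± 1.89).

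Over the whole atrial list, 26 of 37 measured genes were highest on CM replicate 1, and the summed linear signal was 209500 there against 31580 and 25780 on the other CM arrays and 11490 to 12290 in MEF. Pam, the enzyme that amidates peptide hormones, read 13.49, 11.65 and 11.51, and Kcnj5, a subunit of the acetylcholine-activated potassium channel, 11.15, 10.01 and 9.99. Both stood well above MEF on every CM array, with differences of 3.0 ± 0.42 for Pam and 7.50 ± 0.75 for Kcnj5 (5.11 with 32 added). The atrial genes Stard10, a lipid transfer protein, and Dkk3, a secreted Dickkopf relative, depended more on this array. Stard10 read 13.25, 10.18 and 9.55, and its difference of 2.60 ± 0.73 was 1.47 without it. Dkk3 read 11.89, 6.68 and 6.32 in CM and 11.08, 11.39 and 11.05 in MEF. Its call of -2.87 ± 1.13 rested on replicates 2 and 3, and replicate 1 lay above the fibroblasts. It was -4.67 without replicate 1, and without any other single array the call was lost (adjusted p of 0.0577 to 0.162).

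Ventricular genes were present on all 3 CM arrays, replicate 1 included. The summed signal of that list was 244400 on replicate 1 and 358300 and 342800 on the other CM arrays, and 4 of its 29 measured genes were highest on replicate 1. Irx4, a homeobox factor of ventricles, read 8.51, 9.03 and 8.83, against 1.11 to 2.54 in MEF. Ckm read 13.93, 14.97 and 14.99, and in Ckm, Kcnip2 and Myl2 replicate 1 was the lowest CM array. Shox2, the sinus node factor called lower in CM, read 9.09 on replicate 1 and 6.58 and 5.97 on the others, against 9.77 to 9.79 in MEF.

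Fat genes were high on the same array. Adipoq, the adipocyte hormone adiponectin, read 13.50, 6.21 and 5.09 in CM and 4.04 to 4.87 in MEF (3.82 ± 1.81, adjusted p = 0.0817), and without CM replicate 3 the difference was 5.41 and called (adjusted p = 0.0227). Ucp1, the uncoupling protein of brown fat, read 13.27, 6.60 and 3.64 in CM, and Scd1, the desaturase of fat synthesis, 14.81, 9.87 and 9.29 against 10.48 to 10.53 in MEF, so that for Scd1 replicate 1 lay above the fibroblasts and the other 2 below. The call of Ucp1 (5.65 ± 2.05, adjusted p = 0.0299) was lost with 32 added and without MEF replicate 2 or 3. Of the 17 adipocyte genes measured 15 were highest on replicate 1, and the summed signal was 165900 there, 91940 and 87050 on the others and 6982 to 7160 in MEF. Cidea, of brown fat, was nevertheless high on each CM array, at 12.38, 10.53 and 10.72, and Fabp4, of adipocytes and capillary endothelium, was higher than in MEF by 4.15 ± 0.31 with a CM SD of 0.13.

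Genes of mesothelium, the cell layer that covers the heart and lines the chest, followed the same array. Upk3b read 10.94, 6.69 and 3.47 in CM and 6.79 to 7.24 in MEF, and Msln, mesothelin, 9.19, 7.20 and 3.25. All but 1 of the 19 measured genes of that list were highest on replicate 1, with a summed signal of 33690 against 24650 and 15660 on the other CM arrays. Mlana, of pigment cells, read 11.20 on replicate 1, 3.59 on replicate 2 and 1.5 on replicate 3. Atrial, fat and mesothelial genes were thus all raised in the 1 sample, and the part of each in its differences from the other CM samples was not tested. They were not alone. Replicate 1 was also highest for 36 of 58 measured secreted factors of fibroblasts, 28 of 42 TGF-beta and BMP genes and 26 of 39 macrophage genes. For complex I it was highest in 1 of 34 genes. The share over all genes is not given here.

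**Figure D4:**
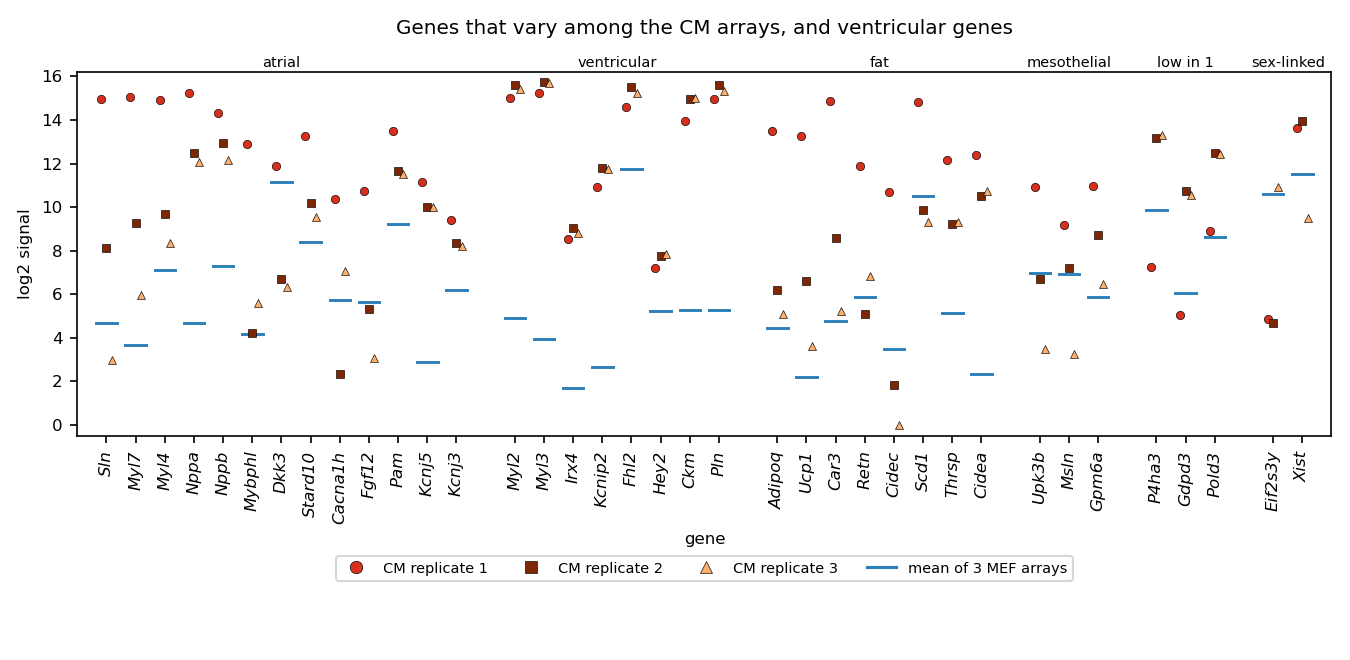
Log2 signal (vertical axis) on CM replicate 1 (red circles), 2 (dark squares) and 3 (orange triangles) of genes that varied among the CM arrays and of ventricular genes, with the mean of the 3 MEF arrays as a blue bar. Replicate 1 is highest for the atrial, fat and mesothelial genes shown, such as Sln at 14.95 against 8.14 and 2.97. It is lowest for P4ha3, Gdpd3 and Pold3. The ventricular genes differ less, with replicate 1 the lowest for Ckm, Kcnip2 and Myl2. Eif2s3y and Xist set replicate 3 apart from 1 and 2.

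A few genes were low on replicate 1 alone. P4ha3, a subunit of collagen prolyl hydroxylase, read 7.23 there and 13.17 and 13.32 on the other CM arrays, against 9.72 to 10.02 in MEF. As the CM arrays lay on both sides of the fibroblasts, its difference was not called (1.38 ± 1.26), while without replicate 1 it was 3.38 (adjusted p = 6.79e-09). Pold3, a subunit of DNA polymerase delta, read 8.90, 12.49 and 12.44 against 8.58 to 8.65 in MEF, and Gdpd3, a phosphodiesterase, 5.03, 10.74 and 10.54. In the RefSeq table of GRCm38.p6, P4ha3 and Pold3 lie on chromosome 7 with 3 coding genes between them, Lipt2, Kcne3 and Pgm2l1. Lipt2 read 8.2, 6.76 and 7.86 on the CM arrays and Pgm2l1 8.84, 8.22 and 7.68, so neither had the low value on replicate 1 that their neighbours had. Values of Kcne3 are not given here, and the cause of the low values was not tested.

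Sex-linked genes differed among the CM samples. Eif2s3y, on the Y chromosome, read 4.87 and 4.67 on CM replicates 1 and 2 and 10.94 on replicate 3, and Xist, the RNA of the inactive X, read 13.65, 13.95 and 9.49. The MEF arrays had both, at 10.52 to 10.67 and 11.45 to 11.61. Replicate 3 also had the highest signals of Dbp, a factor that cycles with the circadian clock, at 13.03 against 10.60 and 11.43, and of Igtp, an interferon-induced GTPase, at 13.13 against 11.52 and 11.07. Both of these genes were higher than in MEF on each CM array, with differences of 3.28 ± 0.47 and 3.02 ± 0.40.

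Leaving out CM replicate 1 changed the counts of many gene groups, most of them by a few genes. Secreted factors of fibroblasts then had 41 genes lower in place of 37, immediate early and heat shock genes 26 in place of 22, and fibroblast transcription factors 24 lower and 4 higher in place of 21 and 3. The TGF-beta and BMP pathway had 20 lower and 4 higher in place of 17 and 3, and cardiac transcription factors 4 lower in place of 2, with 28 higher in both fits. Mitosis had 55 genes lower and 1 higher, and the endothelial list 34 higher and 1 lower. The atrial list had 16 of 27 tested genes higher and 5 lower, against 17 of 30 and 4 with all arrays, and the adipocyte list 6 of 11 against 8 of 15. Conduction system genes went from 5 higher and 3 lower to 4 and 5. The mesothelial list went from 6 higher and 1 lower of 18 to 5 higher and 5 lower of 17. The thick filament counts were 17 and 1 in both fits.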

How the data were processed

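RNA was amplified with a 3' kit and biotin-labelled, per the labels' protocols. Values were used as deposited by the authors, on a log2 scale that the table does not state: once turned back to linear signals, every array had a trimmed mean of 500.003 (2% off each end). The submitters' processing notes name MAS5. Scan dates were not analysed here, and any batch that matches the groups cannot be told apart from cell type. Differences were tested with limma 3.58.1 in R 4.3.3 (lmFit and trended eBayes, 2-sided, all 9 arrays in 1 model); an exact test of 3 against 3 cannot go below p = 0.1. Members, gene lists and the naming rule were chosen with earlier results of these data known. Genes named are the 12 highest and 12 lowest. Of each list and direction, up to 8 called members are named by the difference with 32 added. The rule adds 34 defining genes, the 15 with the largest CM range, and the 8 highest and lowest of each CM array. It also adds all atrial and ventricular genes, and members of described lists that were not called. Other genes named are outside the rule, and only some of them are marked. Among those not marked are Cdk1, Ccnb2, Top2a, Pcna, Kcnd2, Cdh2 and Acadm. On data simulated over 12559 genes, the fit found 76.6% of 64 genes shifted by 1.5 and 79.7% of 64 shifted by 2. It found 91.7% of 72 shifted by 4, and 1 of 167 calls (0.599%) was false. The noise was normal with 1 pooled SD per gene for all groups, whereas the median SD was 0.239 for CM and 0.109 for MEF. Far fewer genes were shifted than the 43.9% called here, so these rates may not hold for this comparison. Gene names came from the array's platform annotation, and 932 probe sets with several symbols were left out. Of the called genes with several probe sets that reached 6.58 in a group mean, 2561 in number, 87.2% had 1 sign in all of them. Promoters came from the RefSeq table of GRCm38.p6, matched by symbol for 10107 of the genes tested. The genome build behind the array is not given in the sources used here. Alternatives were another constant, filter, normalization, centring or levelling, the mean over probe sets, fewer samples, array weights, the minimum difference and the replicate block. Python 3.11.15 with matplotlib 3.10.9 drew the figures.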

Additional observations from a re-analysis of the deposited data

How the results depend on the processing

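The counts of higher and lower genes moved most with the level of the arrays and the minimum difference: 1551 and 5483 after levelling on the hybridisation controls, 4218 and 4572 with no minimum difference, and 1468 and 1114 with a minimum of 2. With both groups required to reach the median of the table, an alternative chosen after seeing the data, 1740 were higher and 2058 lower. After centring they were 2094 and 3879. Leaving out 1 array gave 2692 to 2789 higher and 2655 to 2910 lower. With 32 added, the within-CM counts of genes higher and lower by 2 were 96 and 6 for replicate 1, 4 and 27 for replicate 2 and 8 and 37 for replicate 3, since low signals then weigh less. Obsl1 turned to 0.50 with the mean over probe sets; the cause was not tested. Of 415 named genes that were called, 404 were called in the same direction with 32 added, 383 after levelling and 403 without CM replicate 1. Same-numbered MEF and CM arrays did not deviate together (correlations -0.013, -0.001 and -0.008), so no pairing by number was seen in these values. Whether same-numbered samples shared a preparation or a hybridisation day was not tested. The fit with the replicate number as a block gave 2774 higher and 2734 lower. Genes under the median of the table on the arrays of a group have no reliable order there.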
